A study of Saccharomyces cerevisiae with 8 samples.

Results

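The 60 genes described here encode factors that build the small subunit of the ribosome in Saccharomyces cerevisiae, budding yeast. They comprise the proteins of the small-subunit processome and the assembly factors of the 40S particle that follow it. They were listed by name, from their role in assembly, and each was taken from the deposited table by the gene symbol of its probe set, a group of probes on the array that reports 1 transcript. All 60 were found among the 5656 genes measured. All 60 also passed the filter on low signals that kept 5343 genes, which was set on a gene's average signal over the arrays. Some members lay below its level on part of the arrays. UTP20 had 10 probe sets and UTP22 had 6, of which the brightest on average was used.

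The small-subunit processome is a very large particle that forms in the nucleolus on the nascent ribosomal RNA precursor, together with the U3 small nucleolar RNA. Its subcomplexes UTP-A, UTP-B and UTP-C bind one after another, U3 base-pairs with the precursor, and enzymes then cleave, modify and remodel the RNA until a precursor of the small subunit is released. Late factors escort that particle to the cytoplasm, where its last cleavage takes place. Expression of these genes is known to rise when nutrients allow growth, and many of them have in their promoters the ribosomal RNA processing element, to which the protein Stb3 is known to bind.

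Expression was measured in total RNA on 8 Affymetrix arrays, 2 (replicates A and B) in each of 4 groups. The wild type was BY4742, a haploid laboratory strain that carries auxotrophic his3, leu2, lys2 and ura3 alleles, and the mutant was a stb3-null strain, which lacks STB3. Each was grown for 3 days in YPD (yeast extract, peptone and dextrose) and taken either untreated or 10 min after 2% glucose was added. The labels state neither how the deletion was made nor whether A and B are separate cultures. The p-values therefore reflect the scatter of these arrays, which may be technical. All values are signals as deposited, taken as log2 from the values themselves, and all changes are differences of log2 signals. A gene was called where limma's moderated test gave an adjusted p below 0.05 over the 5343 genes.

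STB3 itself had log2 signals of 9.23 and 8.48 in wild type at 3 days and 8.42 and 7.62 after glucose. In stb3-null the same probe set gave 3.30 and 2.90 at 3 days and 2.50 and 2.82 after glucose, below the filter level of 5.80 on every array. Replicates differed more in wild type than in stb3-null: the standard deviation of the A minus B difference over all genes was 0.58 before and 0.55 after glucose in wild type, and 0.26 and 0.28 in the mutant. After glucose the members ran higher on the B than on the A array in both strains, with a median A minus B difference of -0.33 in wild type and -0.29 in stb3-null, where the median over all genes was -0.01 in each. At 3 days the members' median was -0.235 in wild type and -0.04 in stb3-null, beside -0.06 and 0.12 over all genes.

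In wild type, transcripts of nearly all members were higher 10 min after glucose. Of the 60 members, 57 rose and none fell, where 32.3% of all genes tested were called higher and 17.6% lower. All 60 changes were positive, as 58.8% of all genes' were. The median change of the members was 2.24 on the log2 scale, 4.71-fold, beside 0.22 for all genes. On 59 members both glucose arrays lay above both arrays at 3 days, which 44.0% of all genes did. Changes above 2 were found for 41 members that passed, beside 7.49% of all genes. An array of bulk RNA cannot tell a rise in every cell from a larger share of responding cells.

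**Figure D1:**
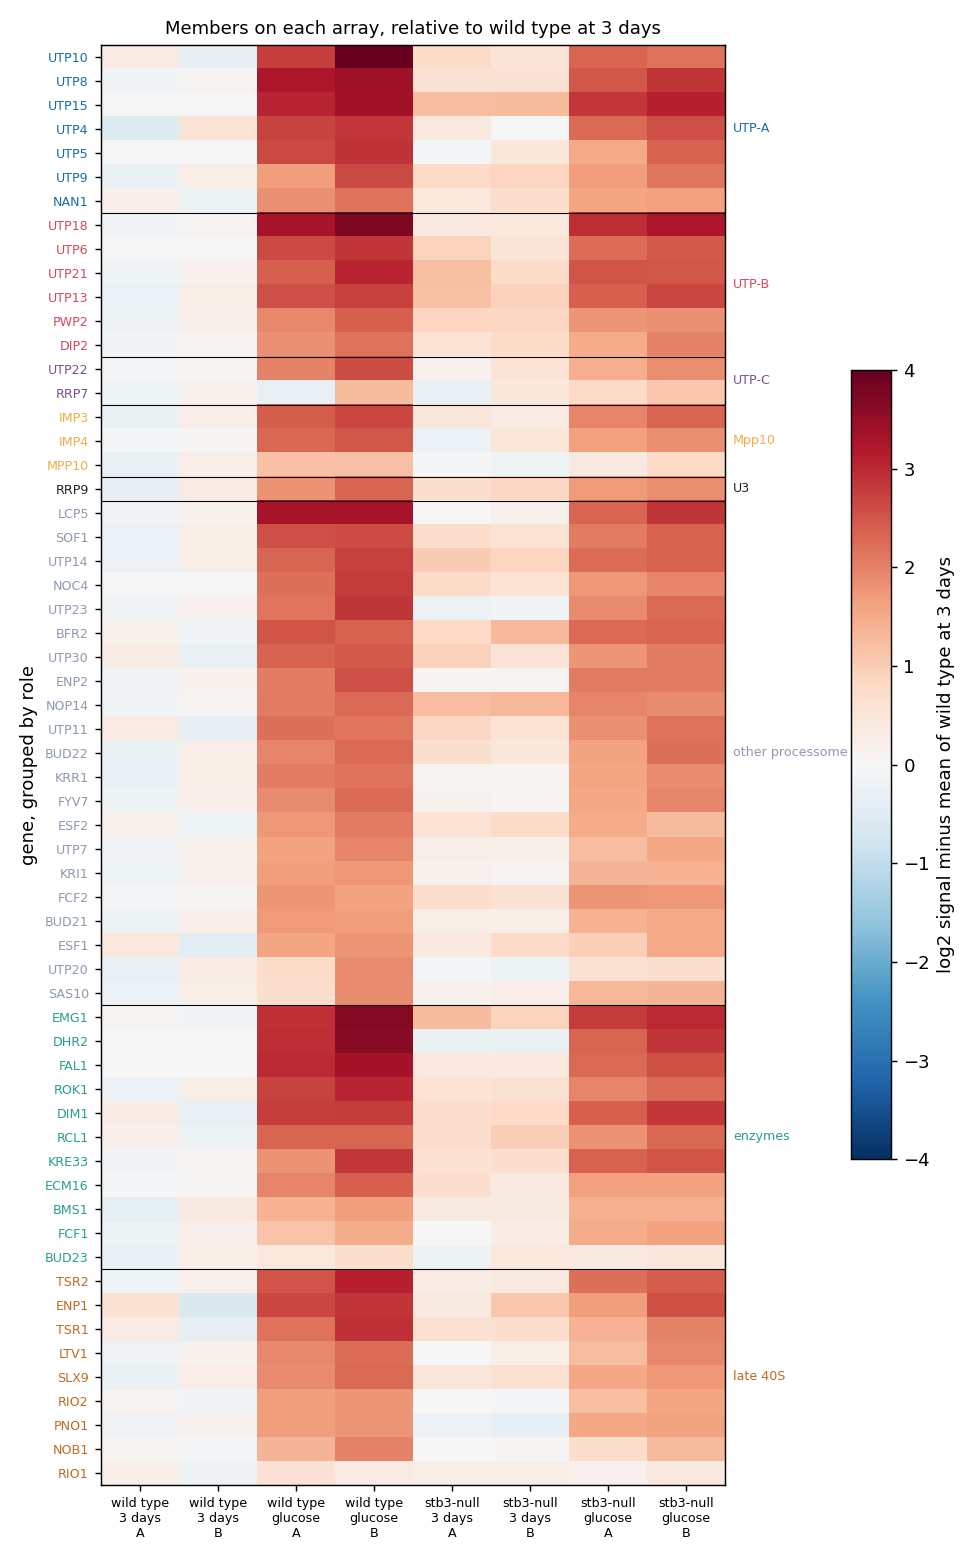
Log2 signal of the 60 genes (rows, grouped by role) on the 8 arrays (columns), each as the difference from that gene's mean in wild type at 3 days; red is higher and blue is lower. Glucose columns are red in nearly every row, RIO1, BUD23 and RRP7 are the palest, and at 3 days most stb3-null cells are slightly redder than those of wild type.

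The largest rise in wild type belonged to UTP18, a WD-repeat subunit of UTP-B. Its log2 signals were 6.68 and 6.90 at 3 days and 10.09 and 10.53 after glucose. The groups lay far apart, and the change was 3.52 (SE 0.22, adjusted p = 1.30e-05), or 11.5-fold. UTP10, a large scaffold protein of UTP-A, went from 7.72 and 7.08 to 10.17 and 11.38, a change of 3.38 (SE 0.37, adjusted p = 9.48e-05) with replicate B well above A after glucose. EMG1, whose product methylates a base of the small-subunit RNA, went from 7.57 and 7.38 to 10.41 and 11.16. Its change was 3.31 (SE 0.28, adjusted p = 2.87e-05), and here too B was the higher array after glucose. UTP8, another UTP-A subunit, went from 6.05 and 6.25 to 9.37 and 9.53 and rose by 3.30 (SE 0.20, adjusted p = 1.30e-05). LCP5, a processome protein that pairs with Bfr2, went from 6.06 and 6.32 to 9.48 and 9.50 and also rose by 3.30 (SE 0.22, adjusted p = 1.30e-05). DHR2, an RNA helicase of the DEAH family, went from 6.27 and 6.33 to 9.24 and 9.92 and rose by 3.28 (SE 0.26, adjusted p = 2.21e-05). The groups of these 6 genes did not overlap.

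Of the 6 largest rises, 3 were in UTP-A or UTP-B, the subcomplexes that bind early. All 7 UTP-A genes rose in wild type, by 2.00 (NAN1) to 3.38 (UTP10), with a median of 2.77. UTP15, UTP4, UTP5 and UTP9 rose by 3.21, 2.77, 2.77 and 2.15. UTP4 lay at 5.79 and 6.84 at 3 days, the former just under the filter level. All 6 UTP-B genes rose, by 2.00 (DIP2) to 3.52 (UTP18), with a median of 2.70. Between these lay PWP2 with 2.15, UTP13 with 2.67, UTP21 with 2.73 and UTP6 with 2.75. UTP-C is a module that works with casein kinase 2, and of its members UTP22 was called and RRP7 was not. UTP22 rose by 2.29 (SE 0.26, adjusted p = 1.12e-04). RRP7 changed by 0.49 (SE 0.45, adjusted p = 0.392), from 8.29 and 8.63 to 8.16 and 9.74, so that its glucose arrays lay on either side of those at 3 days. Its change was 1.28 without wild type glucose replicate A and -0.3 without replicate B, so its response is not settled by these arrays.

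Genes of proteins that sit with U3 rose as well. RRP9, a protein specific to the U3 particle, went from 6.64 and 7.27 to 8.76 and 9.28, a change of 2.07 (SE 0.26). In the Mpp10 complex, which holds U3 on the precursor, IMP3 rose by 2.55 (SE 0.25) and IMP4 by 2.40 (SE 0.26). MPP10, the core subunit, went from 7.53 and 8.04 to 8.97 and 8.95 and rose by 1.18 (SE 0.24, adjusted p = 0.00275), among the smallest rises of the 60.

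All 21 other processome genes rose in wild type, with a median of 2.12. Below LCP5 the larger rises were those of SOF1 with 2.61, UTP14, the activator of the helicase Dhr1, with 2.54, NOC4, the partner of Nop14, with 2.50 and UTP23, a protein with a nuclease-like fold, with 2.50. BFR2, UTP30, ENP2, NOP14, UTP11, BUD22, KRR1 and FYV7 followed with 2.07 to 2.45. ESF2, UTP7, KRI1, FCF2, BUD21 and ESF1 rose by 1.67 to 1.91. UTP20, a giant repeat protein, and SAS10 had the smallest rises of this group, 1.31 (SE 0.34, adjusted p = 0.0106) and 1.29 (SE 0.36, adjusted p = 0.0144). Replicate B was far above A for both after glucose, at 9.48 against 8.34 for UTP20 and 10.91 against 9.72 for SAS10. Without wild type glucose replicate B, SAS10 changed by 0.70 (adjusted p = 0.0785) and UTP20 by 0.74 (adjusted p = 0.0548), and neither passed. Neither passed without wild type 3 days replicate A either (adjusted p = 0.0730 and 0.0585).

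Of the 11 enzymes, 10 rose in wild type, with a median of 2.33. Besides EMG1 and DHR2, the helicase genes FAL1, ROK1 and ECM16, the last encoding Dhr1, rose by 3.16 (SE 0.20), 2.88 (SE 0.24) and 2.17 (SE 0.23). FAL1 went from 5.73 and 5.71, below the filter level, to 8.71 and 9.04, so the size of its rise is uncertain. Among the modifying enzymes, the dimethyltransferase gene DIM1 rose by 2.79 and the acetyltransferase gene KRE33 by 2.30, the latter also from signals below the filter level (5.09 and 5.30). RCL1 rose by 2.33 and its GTPase partner BMS1 by 1.53. FCF1, for a nuclease of the processome, rose by 1.31 (SE 0.25, adjusted p = 0.00228), from 9.11 and 9.50 to 10.43 and 10.80. BUD23, for a methyltransferase that acts late on the small subunit, lay at 8.53 and 9.06 at 3 days and 9.22 and 9.49 after glucose and did not pass (0.56, SE 0.28, adjusted p = 0.120).

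Among the 9 genes for late 40S factors, 8 rose in wild type, with a median of 2.07. TSR2, for a chaperone of a ribosomal protein, rose by 2.82 from signals under the filter level (4.85 and 5.19), and ENP1 and TSR1, for an assembly factor of the late particle and a GTPase-like protein, rose by 2.76 and 2.56. LTV1 and SLX9, both of nuclear export, rose by 2.08 and 2.07. RIO2, PNO1 and NOB1, for an ATPase, a binding partner of Nob1 and the nuclease of the last cleavage, rose by 1.73, 1.72 and 1.66. RIO1, the relative of RIO2, lay at 8.12 and 7.70 at 3 days and 8.49 and 8.25 after glucose. Its change of 0.46 (SE 0.21, adjusted p = 0.0986) was the smallest of the 60 and did not pass.

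**Figure D2:**
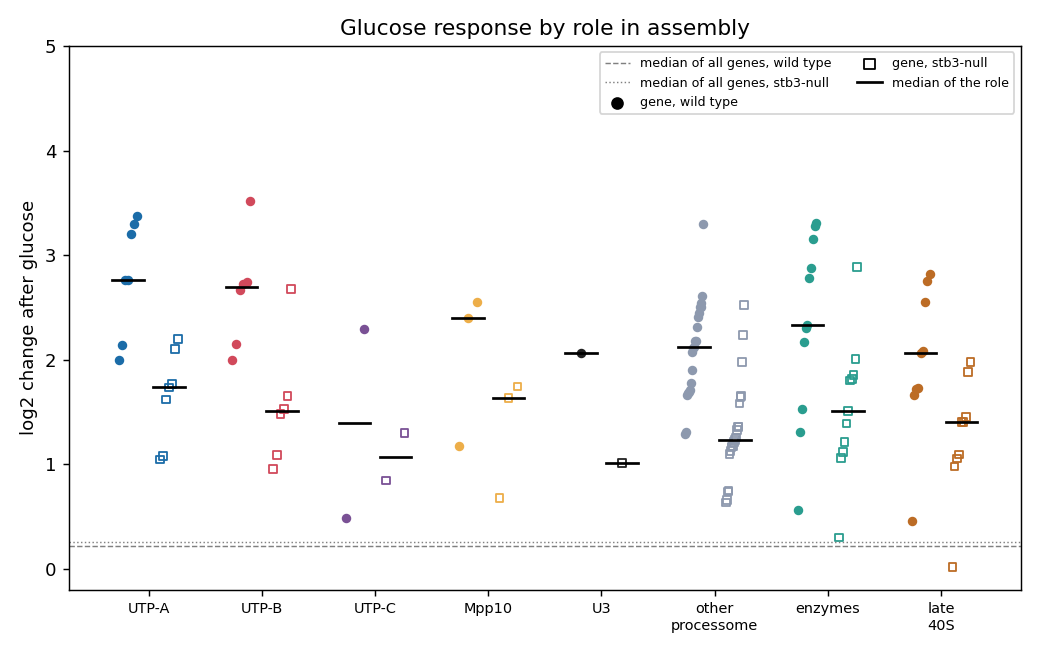
Log2 change after glucose for each gene, by role, in wild type (filled circles) and stb3-null (open squares), with the median of each role (black bars) and of all 5343 genes (grey lines at 0.22 and 0.26). The wild-type medians run from 1.39 in UTP-C, with 2 genes, to 2.77 in UTP-A, and each role's median is lower in stb3-null.

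How arrays were scaled moved the size of these changes but not their direction for the called members. With a common trimmed mean in place of the deposited scale, 55 members passed, their median was 1.75 and that of all genes -0.26. The count of members called ran from 55 to 58 when single arrays were left out.

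Most members also rose after glucose in stb3-null. Of the 60 members, 55 rose and none fell, where 28.0% of all genes were called higher and 11.6% lower. All 60 changes were again positive, as 62.3% of all genes' were, and at an unadjusted p below 0.05 the count was also 55, beside 34.0% of all genes. The median change was 1.36, 2.56-fold, beside 0.26 for all genes, and 7 members rose by more than 2, beside 3.33% of all genes. Both glucose arrays lay above both arrays at 3 days for 58 members, all but RIO1 and BUD23, and for 52.1% of all genes. With a common trimmed mean 36 members passed, with a median of 0.86 beside -0.24 for all genes, and leaving out 1 array of this strain gave 39 to 49. The calls in both strains share 1 estimate of the spread, from which 2668 of all genes were called in wild type and 2113 in stb3-null. With each strain fitted alone, 56 members and 1851 of all genes were called in wild type, and 58 and 3284 in stb3-null. Which strain had more genes called therefore depended on the fit.

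DHR2 rose most in stb3-null. Its log2 signals were 6.03 and 6.0 at 3 days and 8.64 and 9.16 after glucose, and the change was 2.89 (SE 0.26, adjusted p = 1.31e-04), or 7.39-fold. UTP18 went from 7.18 and 7.22 to 9.73 and 10.02, by 2.68 (SE 0.22, adjusted p = 1.10e-04). LCP5 went from 6.17 and 6.36 to 8.53 and 9.04, by 2.52 (SE 0.22, adjusted p = 1.12e-04). These 3 genes were also among the 6 largest rises in wild type, and their groups did not overlap. UTP23 rose by 2.24 (SE 0.27, adjusted p = 3.98e-04), UTP4 by 2.20 (SE 0.32, adjusted p = 8.98e-04) and UTP8 by 2.10 (SE 0.20, adjusted p = 1.52e-04). FAL1 rose by 2.01 (SE 0.20).

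By role, all 7 UTP-A genes (median 1.74) and all 6 UTP-B genes (median 1.51) rose in stb3-null, as did RRP9 by 1.02 and the 3 genes of the Mpp10 complex by 0.68 to 1.75. Among the other processome genes 19 of 21 rose (median 1.24). The exceptions were UTP20, at 7.55 and 7.39 before and 8.19 and 8.25 after glucose (0.75, SE 0.34, adjusted p = 0.109), and ESF1, at 8.37 and 8.81 before and 8.97 and 9.53 after (0.66, SE 0.31, adjusted p = 0.122). UTP20 passed in 5 of 19 other settings and ESF1 in 3 of 19. Of the enzymes 10 of 11 rose (median 1.51) and of the late factors 8 of 9 (median 1.41), among them PNO1 by 1.89 and TSR2 by 1.98. TSR2 again started below the filter level, at 5.32 and 5.40. UTP22 rose by 1.30.

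RIO1, BUD23 and RRP7 did not pass in stb3-null, as in wild type. RIO1 lay at 8.13 and 8.19 before and 8.07 and 8.29 after glucose, a change of 0.02 (SE 0.21, adjusted p = 0.949). BUD23 changed by 0.30 (SE 0.28, adjusted p = 0.412) and RRP7 by 0.85 (SE 0.45, adjusted p = 0.164). RRP7 passed in 5 of 19 other settings, and RIO1 and BUD23 in 0 of 19. NOP14, whose product forms a complex with Noc4, went from 7.38 and 7.48 to 8.10 and 8.03. Its rise of 0.64 (SE 0.18, adjusted p = 0.0223) was the smallest among the called members and passed in 12 of 18 other settings. MPP10 rose by 0.68 (SE 0.24, adjusted p = 0.0442), passing in 11 of 19, and ESF2 by 0.74 (SE 0.22, adjusted p = 0.0235), passing in 13 of 19.

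**Figure D3:**
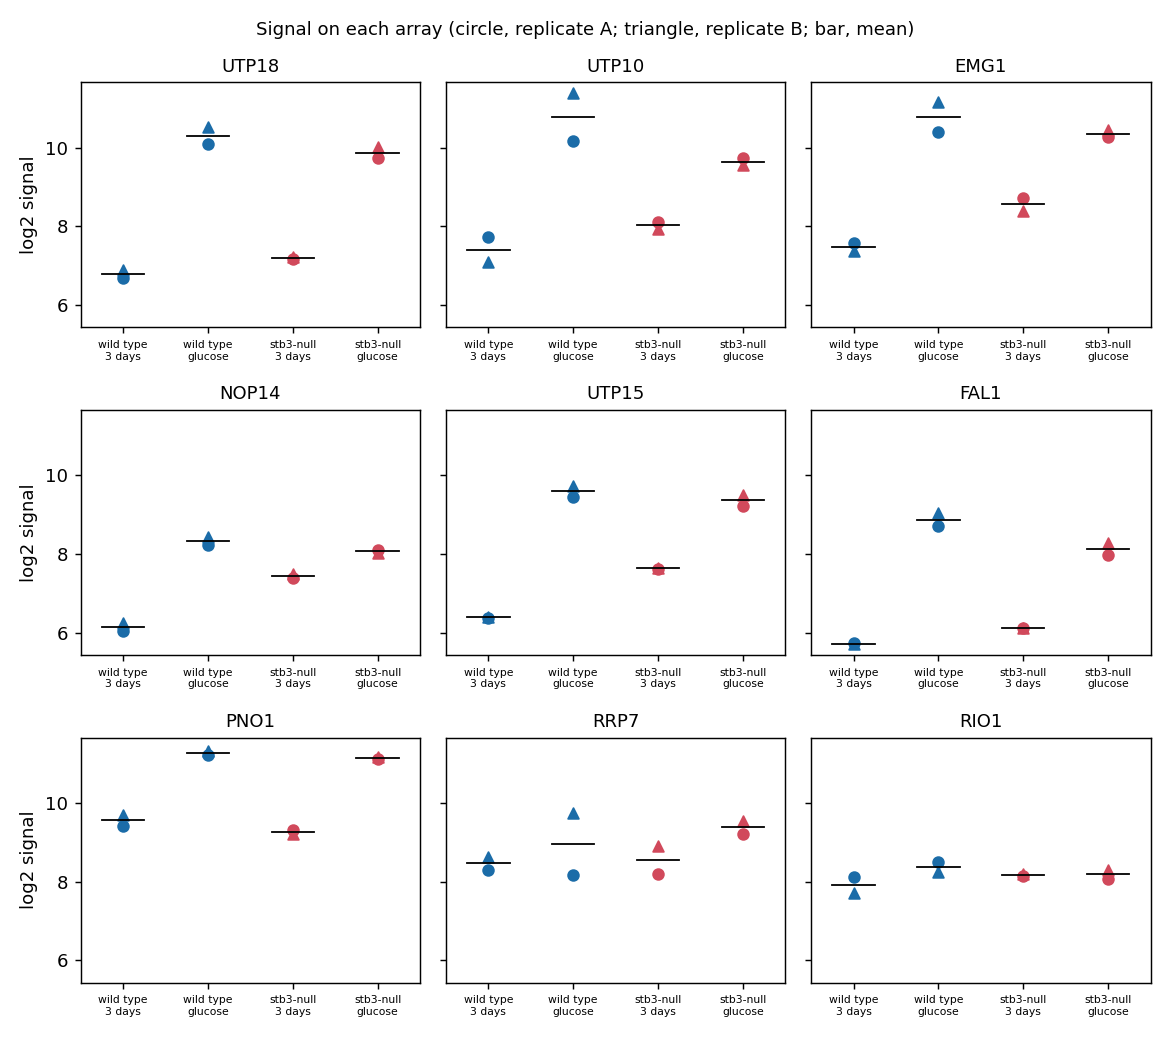
Log2 signal of 9 members on each of the 8 arrays (blue, wild type; red, stb3-null; circles, replicate A; triangles, replicate B; bars, group means). NOP14 and UTP15 are higher in stb3-null than in wild type at 3 days, FAL1 and UTP10 are lower in stb3-null after glucose, PNO1 moves by about the same amount in both strains (1.72 and 1.89), and RIO1 stays between 7.70 and 8.49 on all arrays.

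Across the 60 members the changes in the strains ran together, with a Pearson r of 0.77 and a Spearman rho of 0.74, beside 0.92 and 0.91 across 5343 genes. Genes are not independent replicates, and these values describe the arrays. The change was smaller in stb3-null for 57 members. RRP7, PNO1 and FCF1 had the larger change there, a positive difference between the changes, which 51.4% of all genes had, whether they rose or fell, and RRP7 did not pass in either strain. At the median over the members, the log2 change in stb3-null was 0.60 times that in wild type.

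**Figure D4:**
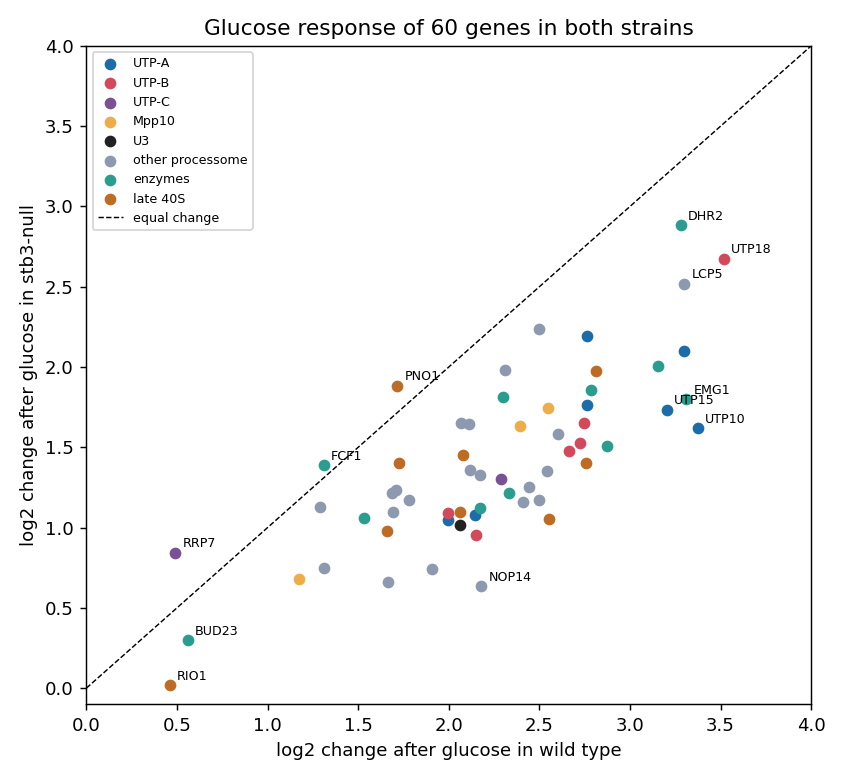
Log2 change after glucose in wild type (x axis) and in stb3-null (y axis) for the 60 genes, coloured by role, with the line of equal change. Of the points, 57 lie below the line, and RRP7, PNO1 and FCF1 lie above it.

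Whether the response differed between strains was tested directly as the difference of both glucose changes. No member passed limma's test for this difference in either direction, nor did any of the 5343 genes (0.0%), and the smallest adjusted p among the members was 0.465. At an unadjusted p below 0.05, 35 of 60 members had a negative difference, here a smaller rise in stb3-null, and none a positive one, where 4.38% and 2.55% of all genes had a negative and a positive difference. The median difference over the members was -0.88, beside 0.02 for all genes, and 57 members were negative, as 48.1% of all genes were. Without both wild-type B arrays, an alternative chosen after seeing that the wild-type replicates differed most, the members' median was -0.76. Each wild-type group is then 1 array. The spread comes from the stb3-null arrays alone, whose replicates differed less, so calls from that fit are not given.

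NOP14 had the smallest p for this difference. Its change was 2.18 in wild type and 0.64 in stb3-null, a difference of -1.55 (SE 0.26, 95% interval -2.13 to -0.96, adjusted p = 0.465). UTP15, a UTP-A subunit, followed with 3.21 against 1.74, a difference of -1.47 (SE 0.28, interval -2.10 to -0.84, adjusted p = 0.601). For EMG1 the difference was -1.51 (SE 0.40), for ROK1 -1.37 (SE 0.34) and for NOC4 -1.33 (SE 0.33). UTP8, PWP2, BFR2, ESF2 and FAL1 had differences of -1.15 to -1.20, and all 8 genes after the first pair had an adjusted p of 0.644. The largest difference, -1.76 for UTP10, had a wider error (SE 0.52, adjusted p = 0.656). At the other end, PNO1 differed by 0.17 with an interval of -0.55 to 0.89, and FCF1 by 0.08 with an interval of -0.72 to 0.88.

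The difference between responses equals the strain difference after glucose minus that at 3 days. Its parts are described here and add no separate support. At 3 days 54 of 60 members had a higher mean in stb3-null than in wild type, as 54.0% of all genes did, with a median difference of 0.53 beside 0.03. After glucose 55 members had a lower mean in stb3-null, as 45.3% of all genes did, with a median of -0.38 beside 0.04. Both held for 49 members and for 22.0% of all genes. The before and after comparisons use different arrays.

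At 3 days no member passed limma's test of the strain difference, and only 0.0187% of all genes were called higher and 0.0187% lower, the latter STB3 alone. At an unadjusted p below 0.05, 24 members were higher and none lower in stb3-null, beside 5.15% and 3.57% of all genes. For 37 members both stb3-null arrays lay above both wild-type arrays, and for PNO1 and DHR2 both lay below, beside 20.3% and 16.9% of all genes. NOP14 gave 7.38 and 7.48 in stb3-null against 6.04 and 6.25 in wild type, a difference of 1.29 (SE 0.18, adjusted p = 0.0858). UTP15 gave 7.61 and 7.65 against 6.38 and 6.40, a difference of 1.24 (SE 0.20, adjusted p = 0.134). Both genes were separated by more than the distance between replicates. BFR2 gave 6.25 and 6.75 against 5.58 and 5.33, a difference of 1.05 (SE 0.22, adjusted p = 0.264), with the wild-type signals under the filter level. The UTP-B genes UTP13, UTP21, PWP2 and UTP6 differed by 1.05, 0.97, 0.85 and 0.70, EMG1 by 1.08, UTP14 by 0.94 and RCL1 by 0.84, with adjusted p values from 0.280 to 0.435.

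Leaving out wild-type arrays changed the calls at 3 days, among the members and among all genes. NOP14, UTP15 and BFR2 passed without wild type 3 days replicate A, when 168 of the 5343 genes were called in either direction, the members' median difference was 0.37 and 17 members were negative. Without wild type 3 days replicate B no member and 2 of all genes passed, with a median of 0.46. Without both wild-type B arrays the median was also 0.46, and the spread then came from the stb3-null arrays alone.

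After glucose no member passed limma's test of the strain difference, where 0.0187% of all genes, STB3 alone, were called lower and 0.0% higher. At an unadjusted p below 0.05, 15 members were lower and none higher in stb3-null, beside 4.6% and 5.05% of all genes. For 37 members both stb3-null arrays lay below both wild-type arrays, which 20.3% of all genes did. FAL1 gave 7.97 and 8.27 in stb3-null against 8.71 and 9.04 in wild type, a difference of -0.76 (SE 0.20, adjusted p = 0.331). ROK1, also a helicase gene, gave 9.19 and 9.51 against 9.94 and 10.31 (-0.78, SE 0.24, adjusted p = 0.389). LCP5 gave 8.53 and 9.04 against 9.48 and 9.50 (-0.71, SE 0.22, adjusted p = 0.389). The groups of these 3 genes did not overlap. UTP10 gave 9.73 and 9.56 against 10.17 and 11.38 (-1.13, SE 0.37, adjusted p = 0.400), and most of that distance lay in wild type glucose replicate B. Differences for UTP8, NOC4, UTP5, TSR1, DHR2 and NOB1 ran from -0.62 to -0.86, with adjusted p values from 0.399 to 0.459. The median strain difference of -0.38 was close in size to the A minus B distances of -0.33 and -0.29 among the same genes after glucose. It was -0.23 without wild type glucose replicate B, -0.24 without stb3-null glucose replicate A and -0.55 without wild type glucose replicate A, when UTP10 was the 1 member that passed, as lower (adjusted p = 0.0354), and 56 of all genes were called in either direction.

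**Figure D5:**
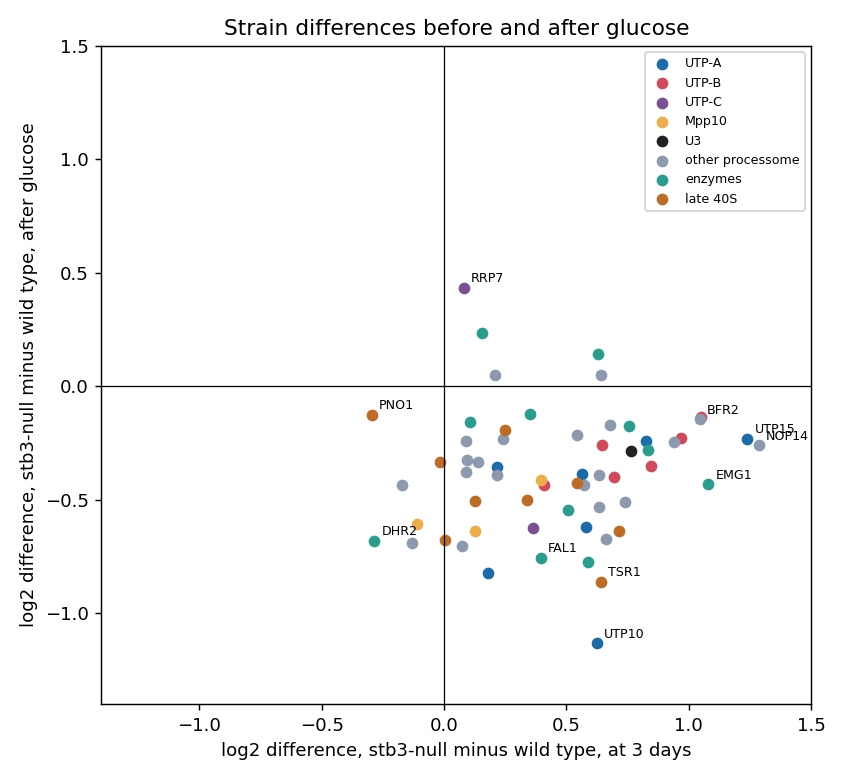
Log2 difference between stb3-null and wild type at 3 days (x axis) and after glucose (y axis) for the 60 genes, coloured by role. The lower right quadrant, higher at 3 days and lower after glucose in stb3-null, holds 49 of the points, and no point was called on either axis.

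The median difference between responses was -1.14 over the 6 UTP-B genes, -1.07 over the 7 UTP-A genes, -0.93 over the 11 enzymes, -0.76 over the 21 other processome genes and the 3 of the Mpp10 complex, and -0.68 over the 9 late factors. It was -1.05 for RRP9, the U3 protein gene, while in UTP-C it was -0.99 for UTP22 and 0.36 for RRP7. All 13 UTP-A and UTP-B genes had a higher mean in stb3-null at 3 days, by 0.18 to 1.24, and a lower one after glucose, by -1.13 to -0.14. Among the late factors the median was 0.25 at 3 days and -0.50 after glucose. Differences between roles were not tested.

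Other genes of ribosome assembly were read beside the members, from lists chosen by function. Of 29 measured genes that also act in small-subunit assembly, 26 rose in wild type and 24 in stb3-null, beside 32.3% and 28.0% of all genes called higher. The medians of the 29 were 2.22 and 1.57. The largest rises in wild type were those of NOP58, a core protein of the small nucleolar particles (4.40), PRP43, an RNA helicase (3.79), and NSR1, the yeast nucleolin (3.72). SQS1, whose product stimulates Prp43, changed by -0.11 (adjusted p = 0.635), and the casein kinase 2 genes CKB1 and CKA1 by 0.55 (adjusted p = 0.0510) and 0.60 (adjusted p = 0.146). Of 64 large-subunit assembly genes, 64 rose in wild type and 59 in stb3-null, with medians of 2.57 and 1.89. Their strain differences had medians of 0.43 at 3 days and -0.33 after glucose. The difference between their responses had a median of -0.71 and was negative for all 64, as it was for 48.1% of all genes. No gene passed limma's test for that difference. The 29 other small-subunit genes had a median of 0.16 at 3 days, -0.23 after glucose and -0.55 for the difference between responses, with 25 negative. The smaller mean response in stb3-null was not limited to the 60 members, and whether it differed in size between these lists was not tested.

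Genes that neighbour the members on the chromosome moved in both directions. By RefSeq's gene order (assembly R64), 30 members have a protein-coding neighbour that is transcribed away from them from the same intergenic region, and none of these partners is itself a member. Of 27 partners tested, 12 rose and 4 fell in wild type, with a median of 0.63, beside the 32.3% and 17.6% of all genes. LCP5 faces NSA2, a large-subunit assembly gene that rose by 2.63, LTV1 faces RPC25, for a subunit of RNA polymerase III, which rose by 2.38, and TSR1 faces RPS29B, a ribosomal protein gene, which rose by 2.36. PNO1 and RIO1 face MDM32 and GCY1, which fell by 1.20 and 1.33, while PNO1 itself rose. NAN1 faces the linker histone gene HHO1, which fell by 0.69, and IMP3 faces MRPL6, a mitochondrial ribosomal protein gene, which fell by 0.64. In stb3-null 6 of the 27 partners rose and 2 fell, neither share above the 28.0% and 11.6% of all genes.

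Probe sets of the same gene disagreed in size. One probe set of UTP22 and a pair of UTP20's lay below the filter level on every array, with wild-type changes of 0.15, 0.18 and 0.67. The others gave 0.80 to 2.29 for UTP22 and 0.30 to 1.31 for UTP20 in wild type, in each case the largest from the probe set that stood for the gene. In stb3-null those above the level on at least 1 array gave 0.24 to 1.44 and -0.02 to 1.11. The stretch of transcript that each probe set covers was not used here. The other 58 members rested on 1 probe set each.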

How the data were processed

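Total RNA was hybridised to 8 arrays, 2 in each of 4 groups taken from the sample titles. The submitters' processing notes name MAS5, which summarises the probes of a probe set, with neither version nor role. The deposited table held 1 log2 signal for each of 9275 probe sets and each array, from 0 to 14.55; the authors' scaling between arrays is not stated in the labels or notes. Array medians lay between 7.53 and 7.69, and no further scaling was applied. Arrays give no counts, so their number limits the precision.

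Gene symbols came from the array's annotation, checked against RefSeq (assembly R64): 6504 probe sets carried 1 gene, while 328 with several and 2443 with no gene listed were omitted. Genes entered the test if their average antilog signal over the arrays reached 10% of the mean 2% trimmed mean, a log2 signal of 5.80. A gene that was low at 3 days could therefore pass through its glucose arrays. TSR2 did so, with 4.85 and 5.19 in wild type and 5.32 and 5.40 in stb3-null at 3 days. KRE33 did so as well, with 5.09 and 5.30 in wild type and 5.77 and 5.88 in stb3-null at 3 days. BFR2 and FAL1 also lay below 5.80 on both wild-type arrays at 3 days.

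All 8 arrays entered 1 fit with 4 group means in limma 3.58.1 (R 4.3.3), with a mean-variance trend, 4 residual and 5.56 prior degrees of freedom, two-sided tests and Benjamini-Hochberg adjustment over the 5343 genes of each of 5 comparisons. The procedure was also run on simulated arrays with known shifts. Their noise was equal in all groups, so they do not cover the unequal spread of the strains here. With 2 arrays a group, an exact permutation test cannot reach 0.05. Intervals are limma's at 95%.

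The members and lists were chosen with earlier results of these data known, so no list was tested as such: lists are described by counts and medians beside those of all genes. All 60 members could be named. Changes with their SE and adjusted p were given for the 6 largest and 6 smallest glucose changes (7 where values tied) and, for comparisons that involve strain, for the 10 smallest p, partly as ranges. Of the other small-subunit genes the 3 largest and 3 smallest wild-type changes were named; the neighbours and the members at the extremes of other measures were named after their values were seen. Promoter and protein sequences were not used here. The 10 other ways of processing, the omission of each array and that of both wild-type B arrays are given in the closing section. The labels do not say whether the letters A and B pair the arrays, and the main fit did not pair them. Correlations of the A minus B differences between groups ran from -0.18 to 0.22, which cannot show whether arrays were paired.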

Additional observations from a re-analysis of the deposited data

How the results depend on the processing

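Of the 60 members, the number called after glucose in wild type was 49 of 52 tested with a stricter filter (40%) and 55 to 58 in the other settings. In stb3-null it was 36 with a common trimmed mean, 47 of 52 with the stricter filter and 39 to 58 elsewhere. No member was called in the 3 comparisons that involve strain under any other way of processing. With single arrays left out the counts were 0 to 3 at 3 days, 0 to 1 after glucose and 0 for the difference between responses. Without both wild-type B arrays, where each wild-type group is 1 array assumed to vary like the others, they were 16, 1 (RRP7, higher) and 5, while 226, 271 and 33 of all 5343 genes were called in either direction. The causes were not tested.

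The letters as a replicate block left the counts at 57 and 55 after glucose and at 0 elsewhere.

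Among the named glucose changes, signs turned for RIO1, RRP7 and BUD23, which had not passed in the main fit. In wild type RIO1 ran from -0.0233 with a common trimmed mean to 0.67 with an array left out. RRP7 in wild type ran from -0.30 to 1.28 with arrays left out and was at -0.13 without both wild-type B arrays. In stb3-null RIO1 was at -0.12 with quantile normalisation, -0.085 with median centring and -0.48 with a common trimmed mean, and ran from -0.09 to 0.13 with arrays left out. BUD23 was at -0.20 with a common trimmed mean and ran from -0.02 to 0.62 with arrays left out. BFR2, FAL1, KRE33, TSR2 and UTP4 started from signals below the filter level on at least 1 wild-type array, which limits how precisely their rises are known.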
